A study of Homo sapiens with 4 samples.

Results

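Versican, hyaluronan synthases, the hyaluronan receptors and the cell-surface heparan sulfate proteoglycans were examined as a set of 8 genes (VCAN, HAS2, HAS3, CD44, HMMR, SDC1, SDC4 and GPC1) among the 67008 genes of the count table. The 8 genes were chosen by their function and with their values in the comparison of shSTAU1 with Ctrl already known, so their values, with the intervals and calls that the fit over all genes gives them, are a description and support nothing. All 8 were matched by symbol to an Ensembl gene identifier. Of the 8, 7 passed the filter on low counts, and HAS2 did not.

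The RNA-sequencing data come from SAS, a line of squamous carcinoma of the human tongue. The Ctrl group held 2 libraries of cells that carry an shRNA against luciferase (shLuc), and the shSTAU1 group held 2 libraries of cells that carry an shRNA against STAU1, an RNA-binding protein of double-stranded RNA. Both groups are labelled as wild-type in genotype and as virally infected, with no time after infection, and the shRNA is the labelled difference between them. The labels also name C3H 10T1/2, a mouse mesenchymal line, as the cell line, although they give the organism as human and the medium as that of SAS cells. The labels name no more than a single shRNA a group, and nothing says whether the libraries of a group came from separate cultures, so any p-value measures the spread between these libraries, which may be technical.

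The extracellular matrix around epithelial cells holds hyaluronan, a long unsulfated polysaccharide that the hyaluronan synthases (HAS) extrude through the plasma membrane. Versican, encoded by VCAN, is a large chondroitin sulfate proteoglycan of the lectican family that binds hyaluronan at its N-terminal end and forms aggregates around the cell. CD44 is the main cell-surface receptor of hyaluronan, and HMMR (also named RHAMM) binds hyaluronan outside the cell and acts at the mitotic spindle inside it. Syndecans cross the membrane and glypicans are held by a lipid anchor, and both carry heparan sulfate chains that bind growth factors. Versican and CD44 are well studied in squamous carcinomas, where versican is often a product of stromal cells.

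The total was 32206655 to 36301574 counts per library. STAU1, the targeted gene, had 248.7 and 251.0 CPM (a gene's counts scaled to the depth of its library, with TMM library sizes) in the Ctrl libraries and 41.6 and 41.5 CPM in the shSTAU1 libraries, which is 16.6% of the Ctrl level. The 8 markers of squamous epithelial cells summed to 7066 to 7477 CPM in Ctrl and 8670 to 11314 CPM in shSTAU1. The 8 markers of fibroblasts and mesenchymal cells summed to 17.9 and 22.8 CPM in Ctrl and to 11.1 and 10.2 CPM in shSTAU1, of which COL1A1 made 15.7 and 20.2 CPM in Ctrl and 7.84 and 6.25 CPM in shSTAU1. COL1A2, of the same list, lay the other way, at 1.19 and 1.68 CPM in Ctrl and 2.15 and 3.62 CPM in shSTAU1 (edgeR adjusted p = 0.185). Of the 8 mesenchymal markers, 4 were tested and COL1A1 was called lower by edgeR (adjusted p = 0.036), COL3A1, DCN and LUM had at most 1 count in any library and THY1 had none. Of the 8 squamous markers, all tested, KRT5 (adjusted p = 0.0408) and SFN (adjusted p = 0.0285) were called higher by edgeR. The 6 leukocyte markers summed to 0.214 to 0.268 CPM in Ctrl and 0.736 to 1.15 CPM in shSTAU1, with PTPRC at 1 count in a single library. CD14, the 1 tested leukocyte marker, had 5 counts in each Ctrl library against 40 and 15 in shSTAU1 (edgeR adjusted p = 0.111), and CD68 was at 0, with 85.8% of its exon bases shared with other genes.

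Of the 8 genes, VCAN differed most between the groups. It was 4.20-fold higher in shSTAU1. HAS3 was at 48.1% of its Ctrl level, at low counts. The libraries of both groups overlapped for CD44, HMMR, SDC1, SDC4 and GPC1. In the edgeR quasi-likelihood fit over all genes VCAN was the 1 gene of the 8 called at an adjusted p of 0.05, where 2.60% of the 14303 tested genes were called, 1.13% higher and 1.48% lower in shSTAU1. VCAN and HAS3 were the 2 genes whose groups did not overlap, as was so for 56.6% of all tested genes, and the 2 with an unadjusted p under 0.05, which 24.5% of all tested genes had. As these genes were chosen with this contrast known, nothing is read from these shares.

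**Figure D1:**
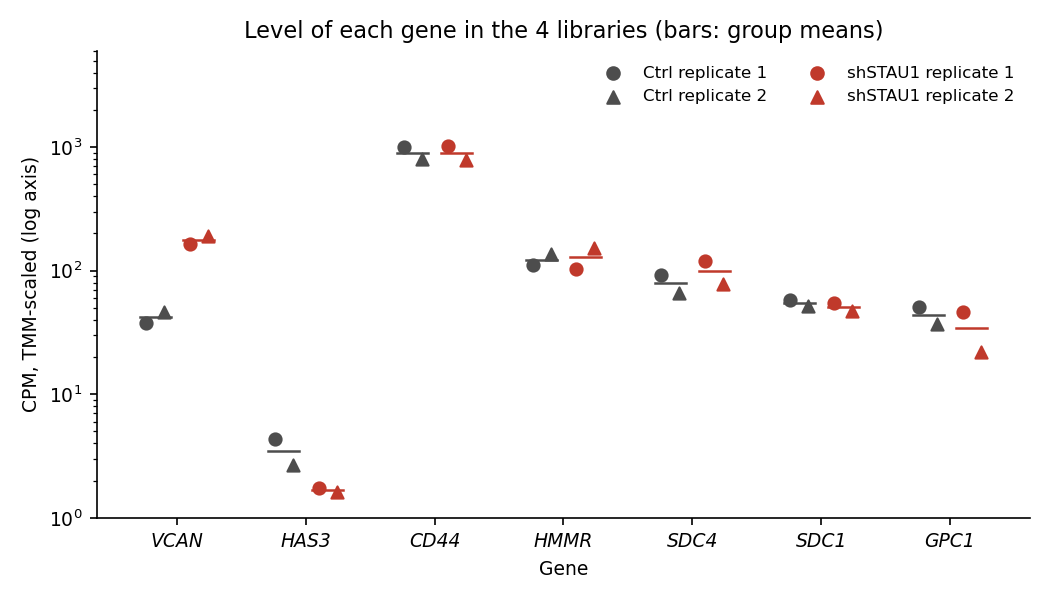
Level of the 7 genes with enough counts in each library, in TMM-scaled CPM on a log axis, with circles for replicate 1, triangles for replicate 2, grey for Ctrl, red for shSTAU1 and short bars for the group means (n = 2 each). Both shSTAU1 libraries lie far above both Ctrl libraries for VCAN (164 and 189 against 37.6 and 46.3 CPM), and the groups are interleaved for CD44, HMMR, SDC4, SDC1 and GPC1.

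VCAN (ENSG00000038427.16, chromosome 5 of GRCh38, 83471465 to 83582303, plus strand) is a protein-coding gene. In Ctrl, 1266 and 1517 counts fell on it (37.6 and 46.3 CPM), and in shSTAU1 5697 and 6681 (164 and 189 CPM). Every shSTAU1 library was above every Ctrl library, and the gap between the groups was wider than the difference within either. Ctrl averaged 42.0 ± 6.14 CPM and shSTAU1 176 ± 18.0 CPM (SD, n = 2 libraries for both). On the log2 scale the difference was 2.07 (standard error, SE, 0.16), with a 95% interval of 1.70 to 2.44 in the edgeR fit, or 3.24-fold to 5.44-fold. This was higher than the log2 fold change of 99.5% of the tested genes. Leaving out any one library gave 1.91 to 2.23. Over the same libraries the summed squamous and leukocyte markers were higher and the summed mesenchymal markers lower in shSTAU1. CDH1 (log2 fold change -0.29) and COL1A2 (1.01) lay on the other side of their lists. So did LYZ among the leukocyte markers, with 3 and 2 counts in Ctrl and 0 and 1 in shSTAU1. The leukocyte sum rests on few counts, at most 40 for CD14 and 10 for CD3E in a library. Of the squamous markers, KRT6A, KRT17, TP63, EPCAM and CDH1 overlapped between the groups. The part of these markers in the difference in VCAN was not tested. In bulk samples, fewer cells of a type and less RNA per cell cannot be told apart. Counts per gene do not separate the splice forms of versican, which differ in their chondroitin sulfate attachment domains. VCAN-AS1, the antisense gene that shares 3.05% of the exon bases of VCAN, had no count in any library. As the libraries were made with an exome capture kit, its level may not be measured.

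VCAN was the one lectican with counts in these exome capture libraries. The other lecticans ACAN, BCAN and NCAN had no count in the 4 libraries. Among the link proteins, which lock lecticans to hyaluronan, HAPLN1 and HAPLN4 had none, HAPLN2 had 1 count in all and HAPLN3 had 4.10 and 3.97 CPM in Ctrl and 4.17 and 2.83 CPM in shSTAU1. The groups overlapped for HAPLN3, with a log2 fold change of -0.21 (SE 0.31, edgeR adjusted p = 0.712).

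The stretch around the RefSeq start of VCAN is shown because VCAN was the gene of the set that differed most between the groups. That of HMMR is shown because HMMR, like most of the spindle genes described below, was higher in replicate 2 of both groups. Each is the RefSeq window of 300 bases (250 before the RefSeq start and 50 from it) on GRCh38.p14, plus strand. The window lies at chr5:83471494-83471793 for VCAN and at chr5:163460382-163460681 for HMMR. Both windows begin inside the GENCODE spans printed for these genes, which start at 83471465 and 163460203. The RefSeq starts used here therefore differ from the GENCODE starts. Of the 8 genes, 7 had a RefSeq window. Capitals mark matches, on either strand, of 6 motifs: TTTGAA (the CHR of cell cycle genes), CCAAT (the CCAAT box), TATAAA (the TATA box), TGANTCA (the AP-1 site), GGAATG (the core of the TEAD site) and CACGTG (the E box).
VCAN: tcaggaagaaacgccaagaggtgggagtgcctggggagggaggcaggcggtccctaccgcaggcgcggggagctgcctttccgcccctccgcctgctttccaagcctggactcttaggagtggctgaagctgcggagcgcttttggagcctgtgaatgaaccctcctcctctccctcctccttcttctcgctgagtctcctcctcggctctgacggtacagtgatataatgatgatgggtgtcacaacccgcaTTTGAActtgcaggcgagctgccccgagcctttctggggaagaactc
HMMR: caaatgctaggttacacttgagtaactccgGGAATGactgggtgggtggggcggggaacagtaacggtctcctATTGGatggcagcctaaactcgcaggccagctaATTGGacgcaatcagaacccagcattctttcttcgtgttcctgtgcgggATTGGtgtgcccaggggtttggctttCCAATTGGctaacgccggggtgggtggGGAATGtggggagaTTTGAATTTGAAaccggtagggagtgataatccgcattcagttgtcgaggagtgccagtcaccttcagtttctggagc
The VCAN window held 1 match, a TTTGAA that starts 3 bases after the RefSeq start. The HMMR window held 9, of which 5 were CCAAT, 2 TTTGAA and 2 GGAATG. In HMMR 2 of the CCAAT matches, on opposite strands, overlap by 2 bases. Of all 35116 promoter windows, 15.2% held TTTGAA, 34.6% CCAAT, 14.0% GGAATG, 11.5% TATAAA, 7.71% TGANTCA and 7.26% CACGTG. The HAS3 window held 1 CACGTG, and those of CD44, SDC1, SDC4 and GPC1 held none of the 6 motifs. A match describes the letters of the window and does not show that a factor binds there.

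The hyaluronan synthases had few counts in these libraries. HAS2 (ENSG00000170961.7, chromosome 8 of GRCh38, 121612116 to 121641390, minus strand), the synthase of long hyaluronan chains in many mesenchymal cells, had 2 and 0 counts in Ctrl and 2 and 0 counts in shSTAU1. Each library was below 3 counts, a floor that corresponds to at most 0.0916 CPM and covers counting error only, so no fold is given and a difference was not detectable at this depth. HAS1 and the antisense gene HAS2-AS1 had no count. The libraries were made with an exome capture kit, so the level of a noncoding gene such as HAS2-AS1 may not be measured by it.

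HAS3 (ENSG00000103044.11, chromosome 16 of GRCh38, 69105564 to 69118719, plus strand), the synthase typical of epithelial cells, had 146 and 87 counts in Ctrl and 61 and 57 counts in shSTAU1. This is 4.34 and 2.66 CPM in Ctrl against 1.75 and 1.61 CPM in shSTAU1. The groups did not overlap, but Ctrl replicate 1 was well above Ctrl replicate 2. The means were 3.50 ± 1.19 CPM and 1.68 ± 0.098 CPM (SD, n = 2 each). The log2 fold change was -1.06 (SE 0.37, 95% interval -1.91 to -0.196). Without Ctrl replicate 1 it was -0.67 and without Ctrl replicate 2 it was -1.37, so its size depends on which Ctrl library is used. Exons of CHTF8 on the other strand share 6.90% of the exon bases of HAS3, and reads there cannot be assigned without the strand setting, which is not given in the sources used here.

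The precursors of hyaluronan are made by a short chain of enzymes, and 1 of the 7 tested precursor genes passed the threshold. GFPT2, which with GFPT1 catalyses the first and rate-limiting step towards UDP-N-acetylglucosamine, had 54.9 and 54.3 CPM in Ctrl and 28.9 and 31.2 CPM in shSTAU1. It fell by 0.86 on the log2 scale (SE 0.14, edgeR adjusted p = 0.0358). This call was lost without the filter on low counts (adjusted p = 0.0989), without Ctrl replicate 1 (adjusted p = 0.0871) and without Ctrl replicate 2 (edgeR adjusted p = 0.0926), while the log2 fold change lay from -0.94 to -0.81 in all fits. Over the alternatives that keep the groups as the single term its adjusted p (edgeR, DESeq2 or limma) ran from 0.00016 to 0.0989. GFPT1, the more abundant enzyme of the same step, had 313 and 277 CPM in Ctrl and 275 and 248 CPM in shSTAU1, a log2 fold change of -0.18 (SE 0.13, edgeR adjusted p = 0.439). The other 5 precursor genes (UGDH, UGP2, GNPNAT1, PGM3 and UAP1) had log2 fold changes of -0.19 to 0.66, with none called by edgeR. DESeq2 called GNPNAT1, and it called 10.1% of all 14303 tested genes, the share that stands beside each of its calls below.

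None of the 8 tested genes of hyaluronan breakdown passed the threshold, while 3 had an unadjusted p under 0.05 in edgeR's test and DESeq2 called 2 (HYAL1 and CEMIP). Of these 3, GUSB had 84.5 and 83.4 CPM in Ctrl and 66.9 and 53.4 CPM in shSTAU1. Its groups did not overlap, with a log2 fold change of -0.48 (SE 0.15, edgeR adjusted p = 0.112). At the ends of the list stood genes of few counts, named, like GUSB, after their values were seen. HYAL1, a lysosomal hyaluronidase, stood at 32 counts in both Ctrl libraries and at 153 and 60 counts in shSTAU1, and CEMIP, a hyaluronan-binding protein needed for hyaluronan depolymerization, had 152 and 345 counts in Ctrl and 93 and 89 counts in shSTAU1. HYAL1 had a log2 fold change of 1.66 (SE 0.51, edgeR adjusted p = 0.107). That of CEMIP was -1.53 (SE 0.41, edgeR adjusted p = 0.0802). The size of each depends on a single library, as HYAL1 was at 0.81 without shSTAU1 replicate 1 and CEMIP at -0.80 without Ctrl replicate 2.

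**Figure D2:**
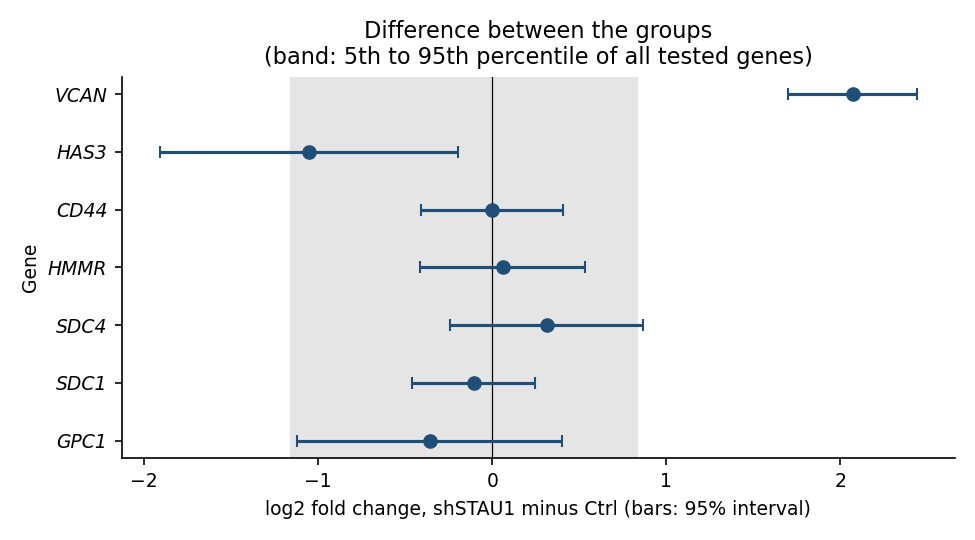
log2 fold change of the 7 tested genes, shSTAU1 minus Ctrl, with 95% intervals from the edgeR fit (n = 2 libraries a group), against the band between the 5th and 95th percentile of all 14303 tested genes (-1.16 to 0.84). VCAN stands to the right of the band at 2.07, HAS3 lies left of 0 at -1.06, and the intervals of the other 5 genes include 0.

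CD44 (ENSG00000026508.18, chromosome 11 of GRCh38, 35138870 to 35232402, plus strand) was the most abundant of the 8 genes. It had 33704 and 26038 counts in Ctrl and 35523 and 27477 counts in shSTAU1, or 1002 and 795 CPM against 1020.4 and 778 CPM. In both groups replicate 1 was higher than replicate 2, and the pairs of values interleaved. The means were 899 ± 146 CPM and 899 ± 172 CPM (SD, n = 2 each). The log2 fold change was 0.00027 (SE 0.18), and its 95% interval of -0.41 to 0.41 leaves room for a change of 1.33-fold either way. The table does not separate the standard and variant splice forms of CD44.

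The listed cytoskeletal partners of CD44 (EZR, RDX, MSN and NF2) were also without a call in edgeR's test. Of these, NF2 alone had an unadjusted p under 0.05 in that test. EZR, which encodes ezrin, had 576 and 579 CPM in Ctrl and 654 and 659 CPM in shSTAU1, a log2 fold change of 0.18 (SE 0.12, edgeR adjusted p = 0.358). RDX and MSN, which encode radixin and moesin, had log2 fold changes of 0.03 and 0.14, and NF2, which encodes merlin, had 0.55 (edgeR adjusted p = 0.104) and was called by DESeq2. Without shSTAU1 replicate 2 the log2 fold change of NF2 was 0.34. Of the 15 other receptors and binders of this list 4 were tested, and 11 were not, of which 6 had no count in any library. LYVE1 and LAYN had no count, and STAB2 and TNFAIP6 had at most 3 counts in a library. CD44 and HMMR were therefore the hyaluronan receptors of this list with enough counts to test.

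HMMR (ENSG00000072571.20, chromosome 5 of GRCh38, 163460203 to 163491945, plus strand) had 3721 and 4422 counts in Ctrl and 3588 and 5408 counts in shSTAU1. This is 111 and 135 CPM in Ctrl and 103 and 153 CPM in shSTAU1, so the shSTAU1 libraries enclosed both Ctrl libraries. The means were 123 ± 17.3 CPM and 128 ± 35.3 CPM (SD, n = 2 each), with a log2 fold change of 0.06 (SE 0.20, 95% interval -0.41 to 0.53). Without shSTAU1 replicate 1 the log2 fold change was 0.32, and without shSTAU1 replicate 2 it was -0.27, so its sign rests on which library is kept.

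Most spindle genes with which HMMR acts were, like HMMR, higher in replicate 2 than in replicate 1 of both groups. Of the 15 tested genes, 14 were higher in shSTAU1 replicate 2 than in shSTAU1 replicate 1, and 13 were higher in Ctrl replicate 2 than in Ctrl replicate 1, against 49.4% and 49.7% of all tested genes. The median ratio of replicate 2 to replicate 1 over these genes was 1.31 in shSTAU1 and 1.11 in Ctrl, and for HMMR it was 1.48 and 1.22. TOP2A, the most abundant, had 674 and 724 CPM in Ctrl and 689 and 846 CPM in shSTAU1, a log2 fold change of 0.14 (SE 0.14, edgeR adjusted p = 0.588). No spindle gene had an adjusted p under 0.05, and 0 had an unadjusted p under it in edgeR's test. DESeq2 and limma-voom also called none of them. KIF11 and DYNLL1 were called by edgeR with the replicate number as a block, where 28.6% of all tested genes were called. KIF15 had no count and NUSAP1 at most 21 counts in a library, where every other spindle gene had at least 2325, and exons of another gene share 62.2% of the exon bases of NUSAP1. Of the 14 spindle genes with a promoter window, 8 held TTTGAA and 10 held CCAAT in any of their windows. Of the windows of all tested genes, counted singly, 10.8% held TTTGAA and 34.7% CCAAT. Genes and windows are unlike units, so nothing is read from these counts.

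**Figure D3:**
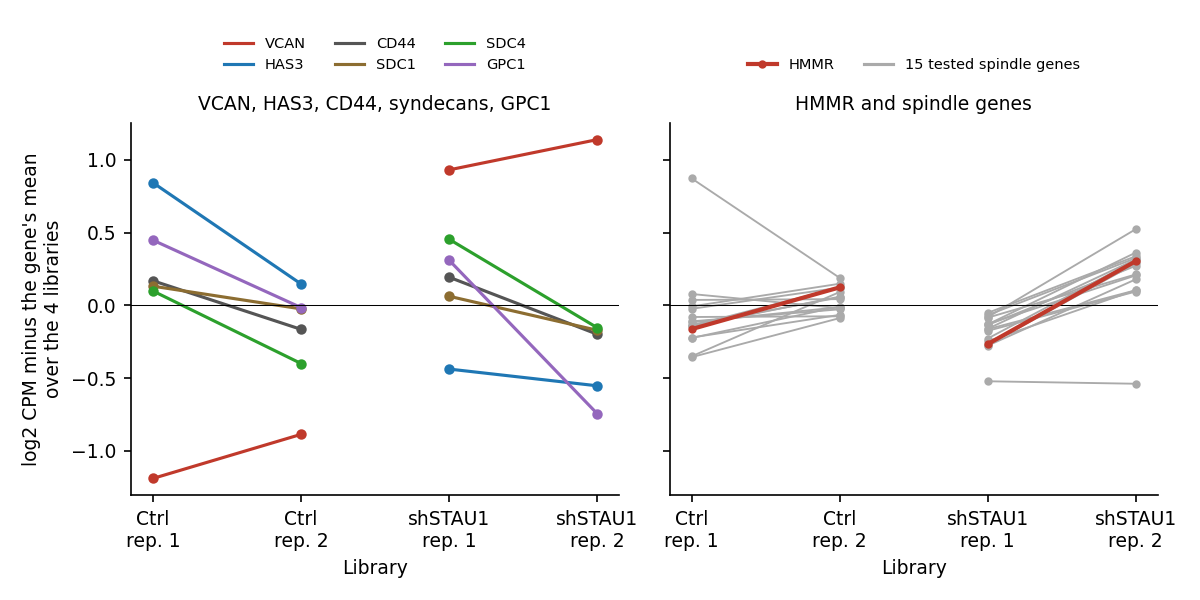
Level of each gene in each library as log2 CPM minus the gene's mean over the 4 libraries, with lines joining the 2 libraries of a group. On the left VCAN is low in both Ctrl and high in both shSTAU1 libraries, while CD44, SDC1, SDC4 and GPC1 differ as much within the groups as between them, and on the right HMMR (red) is higher in replicate 2 of both groups, as are 14 of the 15 tested spindle genes (grey) in shSTAU1 and 13 in Ctrl.

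In CPM per kilobase of exon, the Ctrl means of SDC4, SDC1 and GPC1 exceeded those of 90.7%, 81.5% and 65.0% of the tested genes. SDC1 (ENSG00000115884.11, chromosome 2 of GRCh38, 20200797 to 20225433, minus strand), the syndecan of stratified epithelia, had 57.7 and 51.7 CPM in Ctrl and 54.9 and 46.7 CPM in shSTAU1, from 1651 to 1939 counts. The groups overlapped, with means of 54.7 ± 4.19 CPM and 50.8 ± 5.82 CPM (SD, n = 2 each). The log2 fold change of -0.11 (SE 0.15) had a 95% interval of -0.46 to 0.25.

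SDC4 (ENSG00000124145.6, chromosome 20 of GRCh38, 45325288 to 45348424, minus strand), the syndecan of focal adhesions, had 3120 and 2149 counts in Ctrl and 4136 and 2754 counts in shSTAU1. This is 92.8 and 65.6 CPM in Ctrl and 119 and 77.9 CPM in shSTAU1, with replicate 1 above replicate 2 in both groups and the groups overlapping. The means were 79.2 ± 19.2 CPM and 98.4 ± 28.9 CPM (SD, n = 2 each), and the log2 fold change was 0.31 (SE 0.24, 95% interval -0.24 to 0.87). It was -0.02 without shSTAU1 replicate 1 and 0.57 without shSTAU1 replicate 2.

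GPC1 (ENSG00000063660.9, chromosome 2 of GRCh38, 240435671 to 240468078, plus strand) encodes glypican-1, a lipid-anchored co-receptor of growth factors. It had 1703 and 1202 counts in Ctrl and 1603 and 782 counts in shSTAU1, or 50.6 and 36.7 CPM against 46.0 and 22.1 CPM. The level in shSTAU1 replicate 2 was the lowest of the 4, while shSTAU1 replicate 1 lay between the Ctrl libraries. The means were 43.7 ± 9.85 CPM and 34.1 ± 16.9 CPM (SD, n = 2 each), with a log2 fold change of -0.36 (SE 0.33, 95% interval -1.12 to 0.40). Leaving out shSTAU1 replicate 2 gave 0.06 and leaving out shSTAU1 replicate 1 gave -0.98.

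The remaining syndecans and glypicans had few counts in these exome capture libraries. SDC2 and GPC6 had no count, GPC5 had 1 count in all and GPC3 at most 8 counts in a library. SDC3 had 34 to 67 counts in the 4 libraries, and GPC4 had 5.56 and 4.52 CPM in Ctrl and 1.78 and 2.83 CPM in shSTAU1, a log2 fold change of -1.13 (SE 0.34) that did not pass the correction (edgeR adjusted p = 0.0982). SDCBP, which encodes syntenin-1, the adaptor of syndecan tails, was the most abundant of the 12 other genes of this list. It had 92.3 and 73.4 CPM in Ctrl and 139 and 115 CPM in shSTAU1, a log2 fold change of 0.61 (SE 0.17, edgeR adjusted p = 0.0819). None of the 8 tested genes among these 12 was called by edgeR, 2 had an unadjusted p under 0.05, and DESeq2 called 1 (SDCBP).

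Levels of different genes were compared per kilobase of annotated exon. In Ctrl the order of mean CPM per kilobase was CD44 (89.8), HMMR (31.2), SDC4 (30.3), SDC1 (15.2), GPC1 (6.70), VCAN (2.83), HAS3 (0.662) and HAS2 (0.00710). HMMR and SDC4 overlapped between their libraries, and all other neighbours in the order were apart. In shSTAU1 VCAN stood at 11.9 CPM per kilobase and moved ahead of GPC1 (5.23), and SDC4 (37.6) and HMMR (32.5) again overlapped. The level of VCAN per kilobase exceeded that of 46.7% of the tested genes in Ctrl and of 76.1% in shSTAU1. That of CD44 exceeded 96.7% and 96.3%, and that of HAS3 22.2% and 15.1%. These levels depend on the exon model and on the capture of each exon, so they rank genes only roughly.

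**Figure D4:**
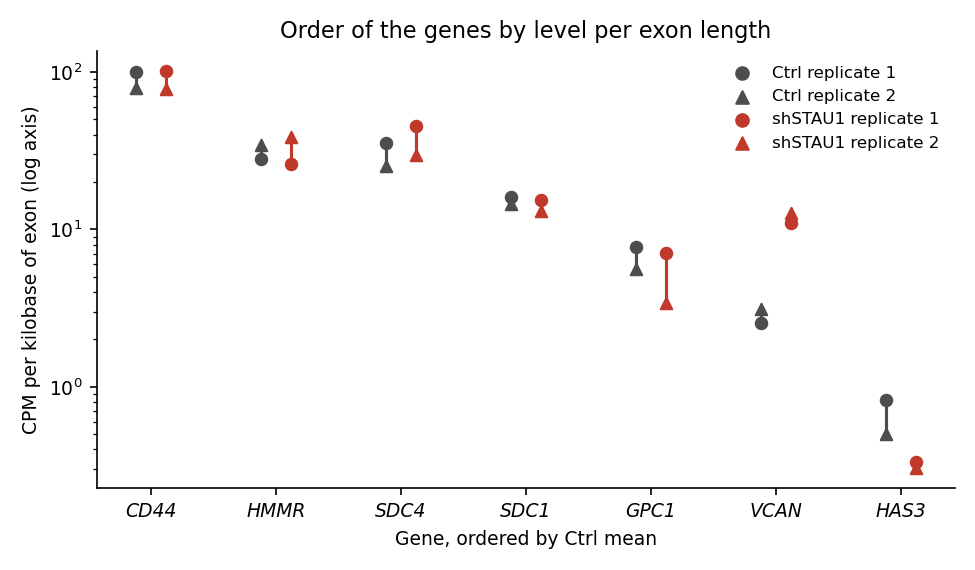
CPM per kilobase of annotated exon on a log axis for the 7 tested genes, ordered by the Ctrl mean, with a line joining the 2 libraries of a group (circles replicate 1, triangles replicate 2). VCAN lies below GPC1 in Ctrl (2.83 against 6.70) and above it in shSTAU1 (11.9 against 5.23), while CD44 is at the top in both groups.

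The enzymes and proteases that act on these proteoglycans were counted over 10 lists of pathway genes, which hold 130 genes besides the 8. Of these, 85 were tested, and 1 (GFPT2) had an adjusted p under 0.05, 0 higher and 1 lower in shSTAU1, with 16 under an unadjusted 0.05 in edgeR's test. Over all tested genes 2.60% were called and 24.5% had an unadjusted p under 0.05. DESeq2 called 10 of the 85, where it called 10.1% of all tested genes, and limma-voom called 1, where it called 2.54% of all. The median log2 fold change of the 85 was -0.02, against 0.006 for all tested genes.

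Among the proteases that cut versican, ADAMTS1 was the abundant one, with 147 and 114 CPM in Ctrl and 182 and 176 CPM in shSTAU1. Both shSTAU1 libraries were above both Ctrl libraries, with a log2 fold change of 0.46 (SE 0.15, edgeR adjusted p = 0.124). ADAMTS15 had 48 to 149 counts and was called by DESeq2 but not by edgeR, and ADAMTS4, ADAMTS5, ADAMTS9 and ADAMTS20 had at most 2 counts in a library. Among the proteases that shed syndecans and CD44, ADAM10 had 439 and 349 CPM in Ctrl and 287 and 204 CPM in shSTAU1, a log2 fold change of -0.68 (SE 0.19, edgeR adjusted p = 0.0893). None of the 8 tested sheddases and inhibitors was called by edgeR, 2 had an unadjusted p under 0.05, and DESeq2 called 1 (ADAM10).

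The genes that build the sugar chains were without a call in edgeR's test. Of 30 genes of heparan sulfate chains 19 were tested, 7 with a positive and 12 with a negative log2 fold change and a median of -0.06. XYLT2 had an unadjusted p under 0.05 in edgeR's test and was the 1 gene of these 19 that DESeq2 called. It had 20.4 and 16.1 CPM in Ctrl and 11.2 and 7.89 CPM in shSTAU1, a log2 fold change of -0.93 (SE 0.24, edgeR adjusted p = 0.0757). XYLT2 and the other enzymes of the linker, which chondroitin sulfate chains share, were counted in the heparan sulfate list only. EXT1, a subunit of the heparan sulfate polymerase, had 768 and 781 CPM in Ctrl and 724 and 624 CPM in shSTAU1, a log2 fold change of -0.20 (SE 0.13, edgeR adjusted p = 0.368). Of 16 genes of chondroitin sulfate chains, the chains that versican carries, 13 were tested, 5 with a positive and 8 with a negative log2 fold change and a median of -0.10. Of these, 3 had an unadjusted p under 0.05, and DESeq2 called 1 (CHST14). CHSY1, a chondroitin synthase, had 72.8 and 74.5 CPM in Ctrl and 84.2 and 67.8 CPM in shSTAU1, with overlapping groups.

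**Figure D5:**
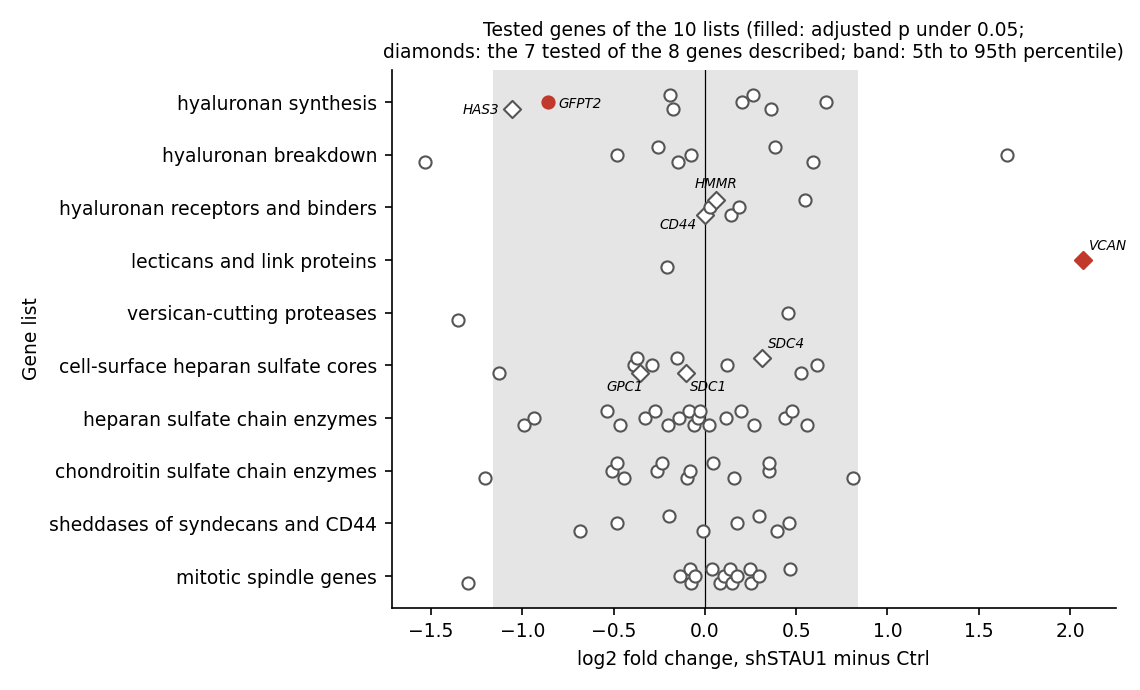
log2 fold change, shSTAU1 minus Ctrl, of each tested gene of the 10 lists, with filled marks for an adjusted p under 0.05, diamonds for the 7 tested genes of the set and a band from the 5th to the 95th percentile of all tested genes. VCAN (2.07) and GFPT2 (-0.86) are the filled marks.

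The genes whose levels over the 4 libraries lay nearest to those of VCAN, HAS3 and GPC1, the 3 genes of the set with the largest log2 fold changes in size, were sought among the 7496 or 7497 protein-coding genes that average 10 CPM or more. Nearness was the root mean square difference of log2 CPM after centring each gene. For VCAN these were MMP3 (0.268), RARG (0.272) and FRY (0.326), and for HAS3 TM4SF1 (0.0704), ITGB5 (0.0759) and DUSP6 (0.0979). MMP3, which encodes a matrix metalloproteinase, had 29.6 and 43.9 CPM in Ctrl and 212 and 212 CPM in shSTAU1, a log2 fold change of 2.53 (SE 0.20). For GPC1 they were HSF4 (0.0205), DSC2 (0.036) and FBLIM1 (0.0392). The likeness rests on 4 libraries, and is a description.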

How the data were processed

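RNA was extracted with Trizol and libraries were made with an exome capture kit, per the labels. The authors deposited whole-number counts per gene for the 4 libraries, without normalization. The submitters' processing notes name Partek and hg38, and the aligner, counter, annotation and strand setting are not given in the sources used here. Of the listed genes, 58516 are in GENCODE 29 on GRCh38 (99.9% of the counts), from which positions and exon lengths were taken.

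Low counts were removed by filterByExpr (minimum count 10), library sizes were TMM-scaled, and shSTAU1 was tested against Ctrl in edgeR 4.0.16 (R 4.3.3) by quasi-likelihood. P-values were adjusted by Benjamini-Hochberg over 14303 genes, and 0.05 was the threshold. The chi-square between replicates, divided by its degrees of freedom, was 25.2 in Ctrl and 60.0 in shSTAU1, beyond sampling noise, and all 4 libraries were counted separately. The smallest p of an exact permutation test of 2 against 2 libraries is 0.333, and edgeR borrows its spread from all genes. Floors cover counting error only. The members and the gene lists were chosen with earlier results of these data known.

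The genes named from a list are its most abundant non-member and the non-members past the threshold, and the 3 nearest genes of the 3 members with the largest changes. All other genes named were chosen after their values were seen. The most abundant gene of 1 list is not reported here. Alternatives were DESeq2 1.42.0, library size only, no filter, limma-voom (limma 3.58.1), the replicate number as a block, a loess correction of each library for transcript length and GC content (99.0% of tested genes have both), and leaving out each library. On simulated counts with 200 genes changed 4-fold in the shSTAU1 against Ctrl design, edgeR recovered 93.5% with 12 false calls among 199, over 13974 genes. The simulated libraries were drawn independently, and only genes of higher mean counts were changed. The recovery therefore does not extend to smaller changes, to genes of few counts or to deviations shared between libraries. Promoter windows were taken from RefSeq.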

Additional observations from a re-analysis of the deposited data

How the results depend on the processing

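VCAN was higher and past the threshold under all alternatives (log2 fold changes of 1.91 to 2.24). HAS3 was lower in all of them (-1.37 to -0.67), and its shift without Ctrl replicate 1 exceeded its spread between replicates, as did those of HMMR without shSTAU1 replicate 2 and GPC1 without shSTAU1 replicate 1. The other 67 of 70 values of the 7 tested genes moved by less. With all libraries kept, CD44 lay from -0.05 to 0.04, with both signs among the settings, and HMMR was -0.02 with the length and GC correction. CD44, HMMR, SDC4 and GPC1 each changed sign with at least 1 library left out. The cause was not tested.

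Against 372 genes past the threshold, DESeq2 gave 1449, no filter 11, the length and GC correction 247 and the replicate block 4087. Leaving out one library gave 214 (Ctrl replicate 1), 226 (Ctrl replicate 2), 2625 (shSTAU1 replicate 1) and 1734 (shSTAU1 replicate 2). In these fits the lone library is assumed to vary like the other group. With library size only the split was 132 higher and 272 lower, against 161 and 211, and with the length and GC correction it was 77 and 170. Of the pathway genes besides the 8, against 1, DESeq2 called 10, no filter 0 (16 with an unadjusted p under 0.05), the replicate block 23, and leaving out one library 2 (Ctrl replicate 1), 0 (Ctrl replicate 2, with 10 under an unadjusted 0.05), 17 (shSTAU1 replicate 1) and 6 (shSTAU1 replicate 2). Other settings gave 1.

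The labels share replicate numbers between the groups but do not say that a number marks a batch. Across all tested genes, deviations from the group means correlated at 0.27 between libraries with the same number, and at 0.59 over the 4791 genes with log2 CPM above 5. With the replicate number as a block, 4 of the 7 tested genes of the set (against 1) passed the threshold (VCAN, HAS3, SDC4 and GPC1), where 28.6% of all tested genes did, with log2 fold changes of 2.07, -1.02, 0.30 and -0.43. The spindle genes KIF11 and DYNLL1 passed it too. Without shSTAU1 replicate 1 there were 2 of the set (VCAN and GPC1, with 18.4% of all tested genes), and without shSTAU1 replicate 2 also 2 (VCAN and SDC4, with 12.1%). Depth limits HAS2, HAS3, HYAL1 and other genes of few counts.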
